A study of Homo sapiens with 30 samples.

Results

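Pop, a group of MDA-MB-231 derived cells, was compared with lineages 03, 10 and 13, which derive from the same human breast cancer cell line. The comparison holds 12 of the 30 libraries of the series, 3 for Pop and 3 for each lineage, all taken from the same deposited table. Of its 26475 genes, 28 with date-like names and 999 antisense genes were left out, and 14242 passed a filter on low counts and were tested. Pop was set against the equal-weight mean of the 3 lineages on the log2 scale, and the genes described are those for which Pop lay outside the range of all 3 lineage means. The Pop mean was above all 3 in 3627 tested genes (25.5%), below all 3 in 3022 (21.2%) and inside the range in 7593 (53.3%).

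All 4 groups carry the same labels for cell line, source (breast cancer) and genotype (wild type, each a distinct lineage). They were grown alone, untreated, for about 24 h in RPMI-1640 with 10% dialyzed fetal bovine serum and 2 mM glutamine. The labels name Pop as a lineage like the others and do not say what the name stands for or whether any lineage is a clone. RNA of bulk cells was sequenced, so fewer cells of a type and less RNA per cell cannot be told apart. The labels do not state whether replicate libraries stem from separate cultures, and the p-values measure only the spread between them, which may be technical.

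MDA-MB-231 is a triple-negative line of mesenchymal character, with much vimentin and little E-cadherin or estrogen receptor. Cells of a cancer line can belong to lineages that differ in stable gene expression and in chromosome copy number. In bulk RNA, a mixture of cells at fixed levels lies between the lowest and the highest of its components, so a gene outside the range of a set of lineages marks a level that those lineages do not hold.

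The summed counts ran from 28.1 to 35.4 M counts per library. The first principal components of all tested genes held 38.1% and 32.5% of the variance, and on the second Pop lay between -68.2 and -66.4 while the lineage libraries lay between 0.972 and 47.0. Pop replicate 1 stood apart within its group. The chi-square per gene of the counts was 54.7 and 75.1 between it and the other Pop libraries, against 6.47 between those 2 and 5.08 to 27.5 within the lineages. The biological coefficient of variation was 14% in Pop, 10.5% in lineage 03, 4.97% in lineage 10 and 9.58% in lineage 13. Of the markers typical of MDA-MB-231, vimentin (VIM) averaged 3706 ± 129 CPM (counts scaled to the normalised library total) in Pop (SD, n = 3) and 2344 to 2748 CPM in the lineages. Of 8 markers that the line is known to hold at low level, ESR1, PGR, FOXA1 and KRT5 had 0 to 3 counts in each of the 12 libraries and were not tested, and EPCAM and GATA3 were not called. CDH1 was called above the lineages, and ERBB2, the HER2 receptor, below them, at 71.4, 75.3 and 75 CPM in Pop against 85.3 to 105 CPM in the lineages (adjusted p = 0.0197).

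Against the mean of the lineages, 3538 genes (24.8% of those tested) were higher in Pop and 2703 (19%) were lower, by edgeR's quasi-likelihood test at a Benjamini-Hochberg adjusted p under 0.05. At least 2-fold changes were 1033 genes higher (7.25%) and 111 lower (0.779%). A gene may differ from a mean and still lie among the lineages. Of the genes higher in Pop, the Pop mean lay inside the lineage range for 949, and of the genes lower in Pop for 668. A mean of logs counts a lineage at 0 heavily: with the arithmetic mean of the lineage CPM, 777 genes were at least 2-fold higher and 176 at least 2-fold lower, and 77 of the genes called higher turned sign. Without Pop replicate 3, 175 genes were at least 2-fold lower on the log scale.

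SERPINB2, which encodes an inhibitor of plasminogen activators, shows such a gene. It had 17.8, 17.8 and 14.8 CPM in the Pop libraries, against 15.6 to 19.4 CPM in lineage 10, 0.0593 to 0.222 in lineage 03 and 0 to 0.0576 in lineage 13. Pop overlapped lineage 10 and was above the other lineages, and its difference from the mean was 5.35 ± 0.18 on the log2 scale (± SE, here and below; adjusted p = 8.11e-11). ACSS3, a short-chain acyl-CoA synthetase of mitochondria, had 10.8, 11.1 and 13.6 CPM in Pop, 14.5 to 15.4 CPM in lineage 10, and at most 0.783 CPM in lineage 13, with none in lineage 03. CREB5, a transcription factor, had no count in lineage 13, and had 8.61 to 12 CPM in Pop and 5.80 to 13.1 CPM in lineages 03 and 10. Each of these genes was called higher than the mean while Pop stayed within the range.

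Among genes lower than the mean but inside the range, ICOSLG, which encodes the ligand of the T cell receptor ICOS, had 3.24, 2.47 and 2.96 CPM in Pop, against 23.6 to 30.9 CPM in lineage 03 and 2.30 to 3.94 CPM in lineages 10 and 13. HLA-DPB1, a class II antigen-presenting chain, had 3.57, 2.56 and 2.15 CPM in Pop, 16.3 to 32.1 CPM in lineage 03, 1.18 to 1.44 in lineage 10 and 6.74 to 8.01 in lineage 13. C1QTNF1, a secreted protein of the C1q and TNF related family, had 0.777 to 1.24 CPM in Pop and 16.1 to 24.4 CPM in lineage 03, with 0.375 to 1.64 in the other 2. LOC100294362 had 0.611 to 1.22 CPM in Pop and 28.3 to 32.7 CPM in lineage 10, with 0.461 to 1.30 in lineages 03 and 13. In these 4 genes a single lineage stood above all other groups.

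To ask whether Pop lay outside the range, it was compared with each lineage in the same fit, and a gene was called when all 3 differences had the same sign and the largest of the 3 p-values passed the adjusted threshold of 0.05. Pop was called above all 3 lineages in 820 genes (5.76% of the genes tested) and below all 3 in 391 (2.75%). In 814 of the 820 and in 388 of the 391 no Pop library overlapped any of the 9 lineage libraries. A call against every lineage largely entails this, so it is no further support for the calls. The share without overlap over all genes tested is not given here. Without Pop replicate 1 the counts were 833 above and 383 below, with 732 and 297 of the same genes. The count below was 250 without Pop replicate 2 and 259 without lineage 10 replicate 2. The nearest lineage was 03 for 327 of the genes above, 10 for 257 and 13 for 236, so no lineage was nearest throughout. At the threshold itself, HDHD2, at -0.31 on the log2 scale from the nearest lineage, was just called (adjusted p = 0.0499) and FAM126B, at -0.54, was just not (0.051).

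The genes above and below differed in size. At least 2-fold from the nearest lineage, 406 genes were above (2.85%) and 13 were below (0.0913%). At 4-fold the counts were 236 above and 1 below, and at 8-fold 158 and 1. Genes above with no more than 3 counts in any lineage were taken at their bound or at the lower 95% limit of their ratio. The gene below, MIA, had a single count in Pop and was taken at its fitted distance. The median log2 distance was 0.97 for the genes above and -0.46 for those below. The filter bears on this: 326 genes passed it in Pop alone, so that Pop could only be the higher group, and 217 of these were called above, all at least 2-fold. Over the 12496 genes that passed in every group, 486 were above and 388 below, of which 91 and 10 were at least 2-fold, with median distances of 0.54 and -0.46.

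**Figure D1:**
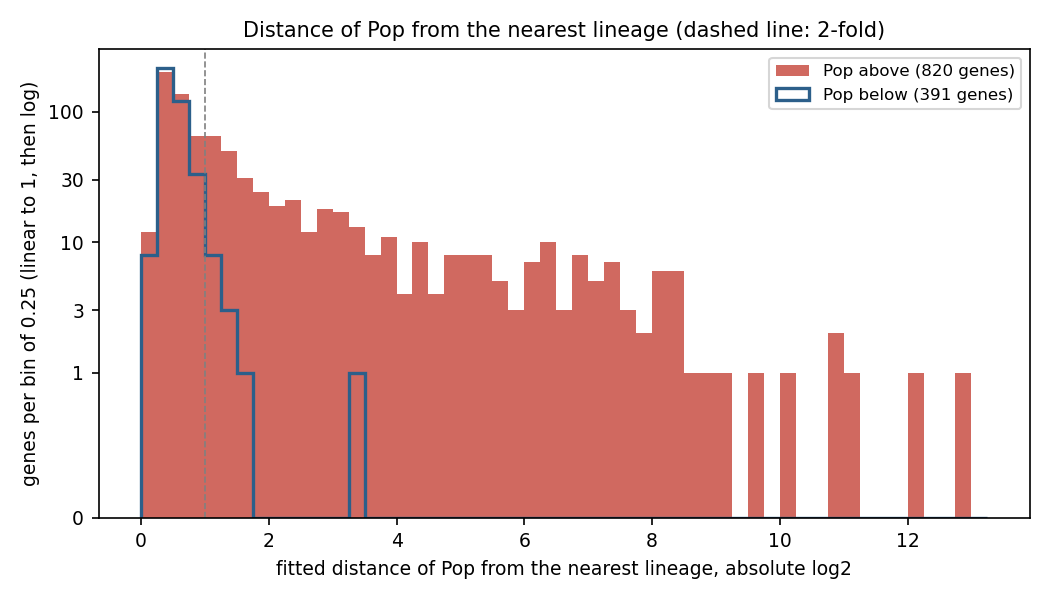
Number of genes (vertical axis, linear to 1 and then logarithmic) by the fitted absolute log2 distance of Pop from the nearest lineage (horizontal axis, bins of 0.25), for the 820 genes with Pop above and the 391 with Pop below. Nearly all genes below lie left of the dashed 2-fold line, while 406 genes above lie right of it; fitted distances of genes with almost no lineage counts depend on the fit's prior count.

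The same test was run with each lineage in the place of Pop and Pop among the other 3 groups. Lineage 03 was above the others in 1378 genes (9.68%) and below in 1236 (8.68%), of which 374 (2.63%) and 305 (2.14%) were at least 2-fold. Lineage 10 was above in 312 (2.19%) and below in 494 (3.47%), with 45 (0.316%) and 144 (1.01%) at least 2-fold. Lineage 13 was above in 546 (3.83%) and below in 655 (4.6%), with 51 (0.358%) and 248 (1.74%) at least 2-fold. Pop thus had fewer genes outside the range than lineage 03 in each direction, and a 2-fold split of 406 to 13 where lineages 10 and 13 had more genes below than above. Among genes that passed the filter in every group, lineage 03 had 238 above and 128 below by 2-fold, lineage 10 had 22 and 85, and lineage 13 had 30 and 133. Pop kept more 2-fold genes above (91) than below (10) in that set as well. These counts share all 12 libraries and were not tested against each other. They moved with single libraries: lineage 10 had 165 above and 304 below without its replicate 1, and 472 and 579 without Pop replicate 1.

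**Figure D2:**
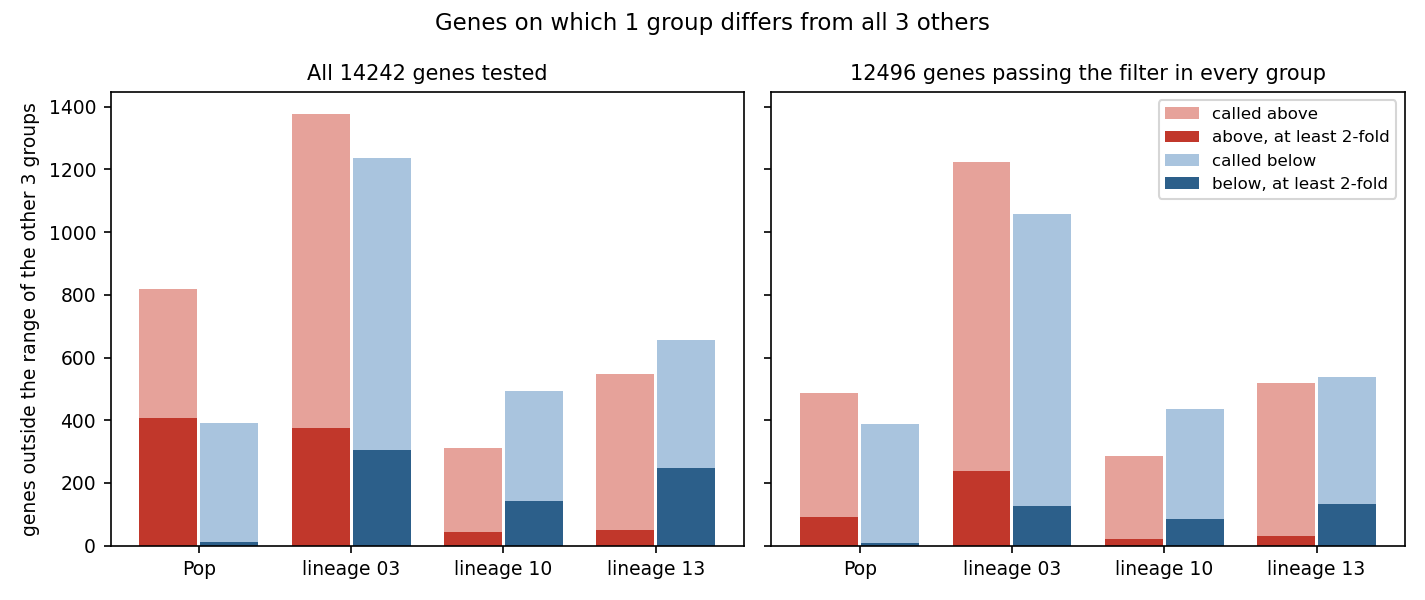
Genes called outside the range of the other 3 groups (vertical axis, number of genes) for Pop and each lineage, over all genes tested (left) and over genes that passed the filter in every group (right). Pale bars are all calls above (red) and below (blue) and dark parts those at least 2-fold from the nearest group; the dark blue part of Pop, 13 genes at the left and 10 at the right, is the smallest of the 4.

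The 12 genes farthest above the lineages, among those with a mean of at least 5 CPM in Pop, had at most 5 counts in any lineage, except SPANXB1 with 51 in lineage 03. ATP10A, a phospholipid flippase of the plasma membrane, AGR2, a disulfide isomerase of the endoplasmic reticulum that acts on mucins, TSPAN8, a tetraspanin, and DTNA, alpha-dystrobrevin of the dystrophin complex, headed those with a promoter entry in RefSeq (GRCh38.p14). Their promoters are shown so that the upstream sequence of genes nearly silent in the lineages can be read beside their values. Each is the 250 bases before the start of the RefSeq entry, on the gene's strand. For ATP10A, AGR2 and TSPAN8 this stretch lies inside the GENCODE span of the gene given below. For DTNA it runs past the start of that span. The windows are chr15:25863328-25863577 (minus strand), chr7:16805000-16805249 (minus), chr12:71158000-71158249 (minus) and chr18:34493062-34493311 (plus). Capitals mark matches on either strand to TATAAA, the core of the TATA box, GGGCGG, the core of the SP1 site, TGTTTAC, a forkhead motif, or TGANTCA, the AP-1 motif.

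ATP10A: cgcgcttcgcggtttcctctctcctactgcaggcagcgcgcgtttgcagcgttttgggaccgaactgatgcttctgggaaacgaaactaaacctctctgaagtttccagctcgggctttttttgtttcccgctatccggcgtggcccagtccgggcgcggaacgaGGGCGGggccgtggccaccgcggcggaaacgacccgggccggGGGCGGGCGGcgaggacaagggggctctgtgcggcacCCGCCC

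AGR2: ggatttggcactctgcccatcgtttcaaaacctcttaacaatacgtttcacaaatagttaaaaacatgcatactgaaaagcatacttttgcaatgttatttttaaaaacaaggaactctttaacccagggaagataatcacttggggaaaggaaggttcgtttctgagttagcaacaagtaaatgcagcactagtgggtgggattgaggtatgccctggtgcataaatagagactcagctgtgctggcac

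TSPAN8: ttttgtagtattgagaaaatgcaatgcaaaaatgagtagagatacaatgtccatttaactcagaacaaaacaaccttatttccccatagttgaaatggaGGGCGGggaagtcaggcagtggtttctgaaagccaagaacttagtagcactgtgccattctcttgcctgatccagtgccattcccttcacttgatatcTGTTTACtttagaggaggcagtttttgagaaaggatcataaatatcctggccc

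DTNA: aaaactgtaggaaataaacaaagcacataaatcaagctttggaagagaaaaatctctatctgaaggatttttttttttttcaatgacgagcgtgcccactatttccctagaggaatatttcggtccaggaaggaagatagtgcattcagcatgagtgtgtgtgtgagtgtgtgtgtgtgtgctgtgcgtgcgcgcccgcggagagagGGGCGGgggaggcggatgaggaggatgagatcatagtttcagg

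ATP10A held GGGCGG at 4 places, of which 2 overlap, TSPAN8 held GGGCGG and TGTTTAC, DTNA held GGGCGG, and AGR2 held none of the 4 motifs. Over all genes called above, 621 of 820 had a promoter entry. TATAAA was found in 7.73% of these, against 5.53% of the tested genes with an entry, TGTTTAC in 2.9% against 1.89%, TGANTCA in 5.8% against 4.17% and GGGCGG in 60.5% against 66.2%. Among the 274 entries of genes at least 2-fold above, TATAAA was in 9.12% and GGGCGG in 53.6%, and the median observed over expected CpG was 0.610, against 0.814 in all tested genes. Of the 406 genes at least 2-fold above, 217 passed the filter in Pop alone. The set thus holds many genes at or near 0 in the lineages, unlike the tested genes as a whole. Genes called below (328 entries) stood on the other side, with 3.96% for TATAAA and 70.1% for GGGCGG. Over all promoters of the table the shares were 11.1% for TATAAA, 2.98% for TGTTTAC, 6.6% for TGANTCA and 42.3% for GGGCGG. The median observed over expected CpG there was 0.556. These shares are descriptions without a test, and a match is not a binding site.

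ATP10A (chr15:25677273-25865172, GENCODE on GRCh38) had 22.4, 28.3 and 32.1 CPM in the Pop libraries and no count in any of the 9 lineage libraries. Pop was high in all 3 libraries and at least 862-fold above a floor of 3 counts over a lineage. A gene with no lineage count passed the filter through Pop alone, so its direction was set by the filter and no p is given for it. AGR2 (chr7:16791811-16833433) had 19.7, 13.4 and 14.3 CPM in Pop and no count in the lineages, at least 491-fold. TSPAN8 (chr12:71125085-71441898) had 8.09, 7.62 and 7.62 CPM in Pop, also with no lineage count, at least 242-fold. All 3 genes were thus absent from the counts of every lineage at this depth. PKIA, an inhibitor of protein kinase A (chr8:78516139-78605267), had 6.11, 6.32 and 8.39 CPM in Pop and no lineage count, at least 217-fold. In all, 27 of the 820 genes had no count in any lineage and 54 had 1 to 3 counts in the highest lineage; the 95% intervals given for genes with 1 to 3 counts cover counting error only.

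CDH11, cadherin 11 of mesenchymal cells (chr16:64943753-65126112), had 74.5, 97.6 and 112 CPM in Pop, against 0.0370, 0.0296 and 0.0609 CPM in lineage 03 and none in lineages 10 and 13. The Pop libraries were far above every lineage library, by 10.99 ± 0.30 on the log2 scale from lineage 03. Lineage 03 held only 4 counts of CDH11, so the distance is less certain than this standard error. SPANXB1, a cancer-testis gene on the X chromosome (chrX:141002591-141003706), had 233, 173 and 165 CPM in Pop, against 0.487 to 0.623 CPM in lineage 03 and at most 0.0302 CPM in the others (8.44 ± 0.20, adjusted p = 2.81e-11). It belongs to a family of near-identical copies, among which reads can be divided, so its level is uncertain. TNS1, tensin 1 of focal adhesions (chr2:217799588-218033982), had 13.3, 18.6 and 18.7 CPM in Pop and at most 0.0914 CPM in any lineage library (8.27 ± 0.37). Its nearest lineage, 10, held only 5 counts, so the same limit applies to its standard error.

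ADAMTS1, a secreted metalloprotease (chr21:26835747-26845409), had 17.6, 24.4 and 18.2 CPM in Pop and 2 counts in all the lineages together, in lineage 10, a ratio of 993 (95% interval 275 to 8204). DTNA (chr18:34493290-34891844) had 11.3, 10.2 and 11 CPM in Pop and 4 counts over the 9 lineage libraries, a ratio to lineage 03 of 507 (140 to 4190.3). MUC5AC, a gel-forming mucin (chr11:1157953-1201138), had 7.36, 14.3 and 15.6 CPM in Pop and 3 counts in lineage 03 alone, a ratio of 389 (133 to 1887). Pop replicate 1 was the lowest Pop library for MUC5AC and still stood above every lineage library. PCDH7, a protocadherin (chr4:30720415-31146805), had 7.33, 10.4 and 10.4 CPM in Pop and a ratio of 309 to lineage 10 (105 to 1501), and LINC01234, a long noncoding RNA (chr12:113679459-113773683), had 8.67, 7.47 and 5.41 CPM and a ratio of 354 (97.7 to 2930). That Pop and lineage libraries did not overlap was a condition for naming these 12 genes.

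**Figure D3:**
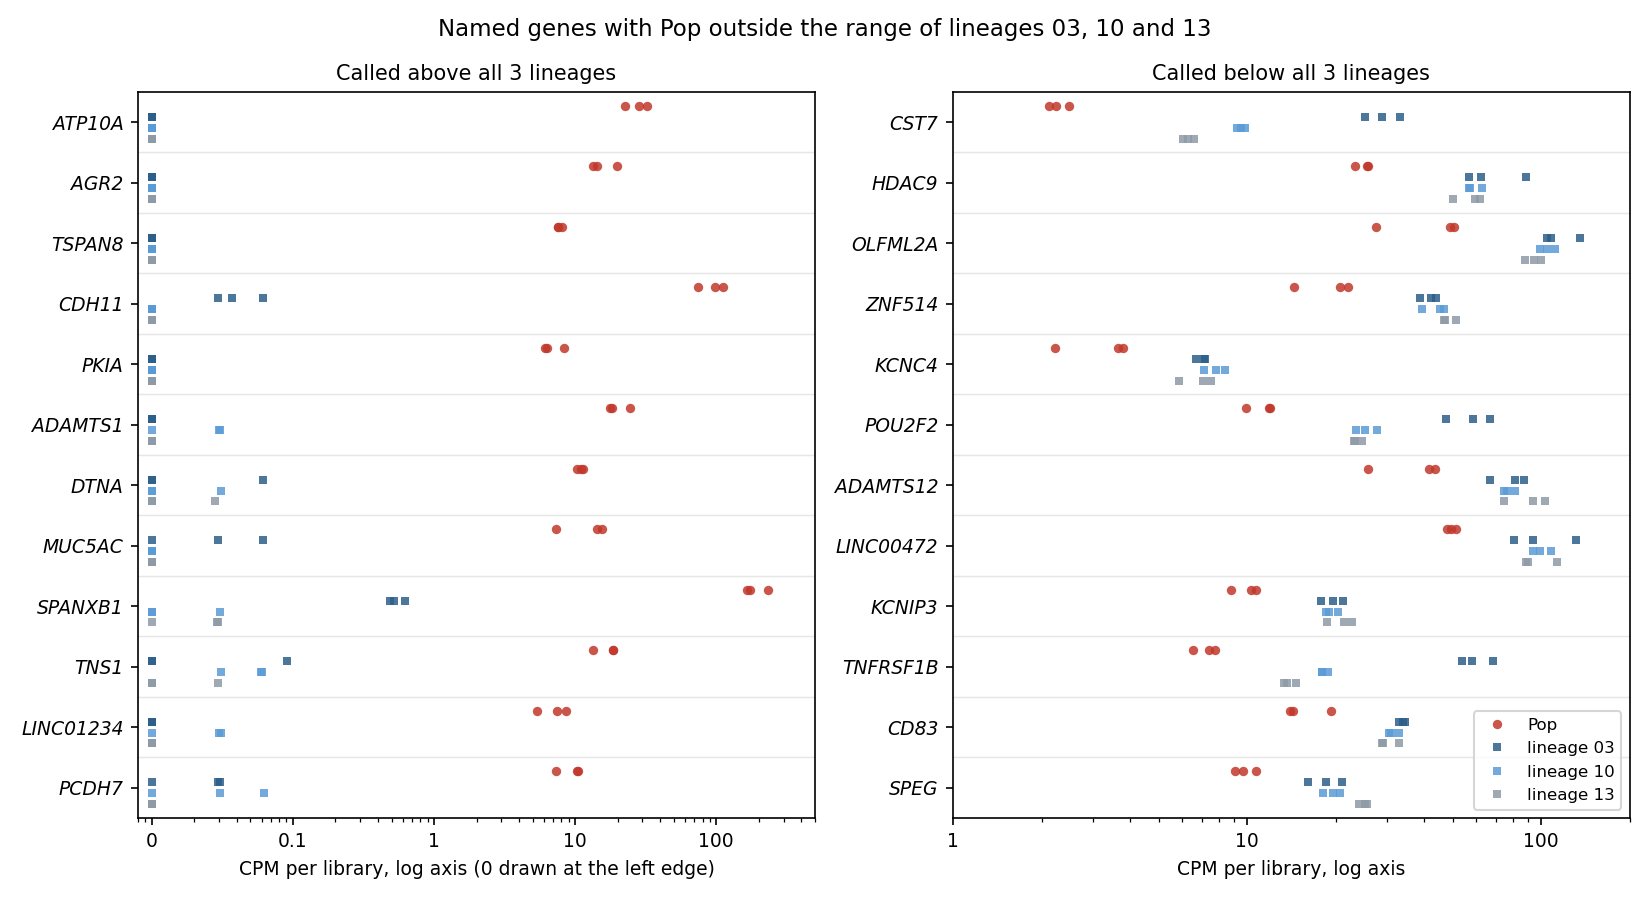
CPM per library (horizontal, logarithmic, with 0 drawn at the left edge) of the 12 genes named above (left panel) and the 12 named below (right panel), those farthest from the nearest lineage at a mean of 5 CPM or more in Pop or in the lowest lineage; red circles are the 3 Pop libraries and squares the 3 libraries of each lineage. Above, the lineage squares lie at or near 0 except for SPANXB1 in lineage 03; below, the Pop circles lie within about 3-fold of the nearest squares.

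The genes below the lineages moved by less. The 12 named here are the farthest among those with a mean of at least 5 CPM in the lowest lineage. That Pop and lineage libraries did not overlap was a condition for naming them. CST7, cystatin F, an inhibitor of lysosomal cysteine proteases (chr20:24949230-24959928), had 2.47, 2.23 and 2.12 CPM in Pop, against 25.3 to 33.0 CPM in lineage 03, 9.21 to 9.87 in lineage 10 and 6.07 to 6.61 in lineage 13. Pop was lowest in all 3 libraries, at -1.47 ± 0.12 on the log2 scale from lineage 13 (adjusted p = 3.92e-06). HDAC9, a class IIa histone deacetylase (chr7:18086949-19002416), had 23.2, 25.7 and 25.6 CPM in Pop, against 50.1 to 88.6 CPM over the lineage libraries (-1.20 ± 0.14, adjusted p = 9.16e-05). OLFML2A, a secreted olfactomedin-like protein (chr9:124777158-124814885), had 27.4, 48.8 and 50.4 CPM in Pop, against 88.0 to 135 CPM in the lineages (-1.16 ± 0.18, adjusted p = 0.000835). All Pop libraries lay below all lineage libraries, and replicate 1 was the lowest Pop library for HDAC9 and OLFML2A, as for ZNF514, KCNC4 and ADAMTS12.

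TNFRSF1B, the TNF receptor 2 (chr1:12167003-12209228), had 7.79, 7.44 and 6.54 CPM in Pop, against 53.9 to 68.4 CPM in lineage 03, 18 to 18.9 in lineage 10 and 13.3 to 14.6 in lineage 13 (-0.94 ± 0.10, adjusted p = 5.03e-05). POU2F2, the B cell transcription factor OCT2 (chr19:42086110-42196585), had 9.90, 12 and 11.9 CPM in Pop, against 47.5 to 67.2 in lineage 03 and 23.1 to 27.6 in lineages 10 and 13 (-1.07 ± 0.12, adjusted p = 7.48e-05). CD83, an immunoglobulin-like protein of mature dendritic cells (chr6:14117256-14136918), had 19.2, 14.3 and 13.9 CPM in Pop, against 28.7 to 34.4 in the lineages (-0.93 ± 0.11, adjusted p = 9.58e-05). All Pop libraries were below all lineage libraries in these 3 genes, and for TNFRSF1B and POU2F2 lineage 03 was the highest group.

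Of the other leading genes below, 2 bear on potassium channels: KCNC4, a voltage-gated channel (chr1:110211343-110283100), had 2.23, 3.65 and 3.79 CPM in Pop and 5.85 to 8.39 CPM in the lineages (-1.08 ± 0.17), and KCNIP3, a calcium-binding channel partner (chr2:95297304-95386083), had 8.83, 10.7 and 10.3 CPM in Pop and 17.8 to 22.7 CPM in the lineages (-0.95 ± 0.10). ADAMTS12, a secreted metalloprotease (chr5:33523535-33892192), had 25.8, 41.5 and 43.6 CPM in Pop, against 66.7 to 103 CPM in the lineages (-1.07 ± 0.17). The zinc finger gene ZNF514 (-1.13 ± 0.13), the long noncoding RNA LINC00472 (-0.98 ± 0.15) and SPEG, a kinase of striated muscle (-0.91 ± 0.11), completed the 12. Their adjusted p-values were 7.61e-05, 0.000711 and 7.57e-05. MIA, a secreted protein with a single count in Pop against 14 to 70 in the lineages, was chosen after its values were seen. It was the only called gene whose fitted distance below passed 4-fold. With a single Pop count it passed the filter through the lineages alone, so Pop could not be the highest group and no p is given for it.

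Epithelial genes were the list with the largest share above the lineages among lists with 10 or more tested genes. Of 19 tested junction and keratin genes, 9 were above all 3 lineages and 0 below, and 14 were higher and 1 lower than the mean, with a median log2 difference of 0.89 against 0.02 over all genes tested, of which 5.76% were above and 2.75% below. KRT81, a hair keratin also made by breast cancer lines, had 481, 293 and 392 CPM in Pop, against 11 to 13.6 CPM in lineage 03, 15.1 to 28.2 in lineage 10 and 2.16 to 2.52 in lineage 13. Pop was above all by 4.17 ± 0.22 on the log2 scale from lineage 10 (adjusted p = 6.17e-08), although hair keratins resemble each other closely and their reads may be shared. KRT7, a keratin of simple epithelium, had 869, 646 and 744 CPM in Pop, against 247 to 292 in lineage 03 and 135 to 223 in the other 2 (1.45 ± 0.13, adjusted p = 5.56e-06). KRT8 and its partner KRT18 were above by 0.51 ± 0.11 and 0.75 ± 0.08, KRT19 by 0.57 ± 0.09 and KRT80 by 0.49 ± 0.11.

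Of the surface and regulatory members, CD24, a mucin-like surface protein, had 9.90, 9.5 and 8.96 CPM in Pop, against 0.148 to 0.883 in lineage 03, 0.508 to 0.746 in lineage 10 and 0.0576 to 0.175 in lineage 13 (4 ± 0.32, adjusted p = 3.16e-06). CDH1, E-cadherin, had 1.4, 1.5 and 1.34 CPM in Pop, against 0.445 to 0.670 in lineage 03 and at most 0.0598 in the others (1.4 ± 0.31, adjusted p = 0.011), so it was above the lineages at a level that stayed low. ELF3, an epithelial transcription factor, averaged 2.18 ± 0.955 CPM in Pop and 0.766 ± 0.358 CPM in lineage 03 (SD, n = 3 each), a difference of 1.51 ± 0.41 (adjusted p = 0.0378). EPCAM, an epithelial surface marker, was not called, at 12.4 ± 1.51 CPM in Pop (SD, n = 3) and 8.73 to 16.5 CPM in the lineages. The tight junction gene CLDN4 and the adherens junction gene JUP lay inside the range.

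Mesenchymal genes did not move the other way. Of 27 tested, 14 were higher and 2 lower than the mean (median 0.55). With at least 5 CPM in 3 libraries, 9 of 21 were higher and 2 lower, and the median was only 0.08. Called outside the range were 4 of the 27 above and 0 below, against 5.76% and 2.75% of all genes tested. Beside CDH11 these were VIM, above by 0.43 ± 0.08 (adjusted p = 0.00455), SNAI1, a transcription factor of epithelial-mesenchymal transition, with 2.20, 2.59 and 2.54 CPM in Pop against 0.587 to 1.15 CPM in the lineages (1.36 ± 0.24, adjusted p = 0.00239), and the matrix protein gene TNC, at 70.5, 97.3 and 87.6 CPM in Pop against 48.5 to 61.3 in lineage 03 and 12.6 to 37.5 in the other 2 (0.59 ± 0.15, adjusted p = 0.0222). ZEB1 and ZEB2, which encode repressors of epithelial genes, were lower than the mean by -0.29 ± 0.07 and -0.32 ± 0.10 on the log2 scale and were not called outside the range. FN1 and the collagen genes COL4A1, COL4A2, COL6A1 and COL6A2 lay inside the range.

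**Figure D4:**
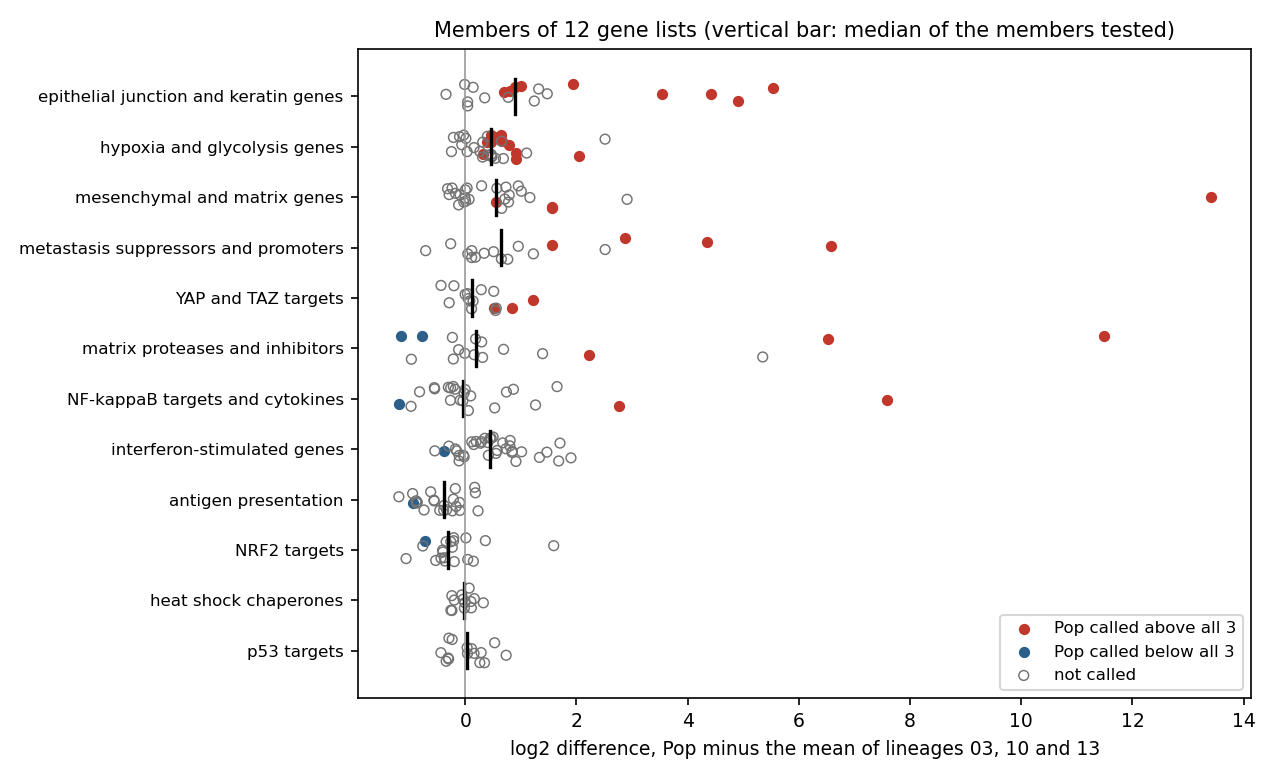
Log2 difference of Pop minus the mean of the 3 lineages (horizontal axis) for the tested members of 12 gene lists (rows), with filled red and blue points for genes called above and below all 3 lineages, open points for genes not called and a bar at each list's median. The epithelial list holds 9 red points with a median of 0.89, and the antigen presentation and NRF2 lists lie mostly left of 0.

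Hypoxia and glycolysis genes had 11 of 32 above and 0 below, against 5.76% and 2.75% of all genes tested. Against the mean 24 were higher and 1 lower (median 0.46). The called members were ALDOA, TPI1, GAPDH, PGAM1, ENO1 and ENO2 of the glycolytic chain, LDHA and LDHB, which interconvert pyruvate and lactate, SLC16A3, a lactate exporter, and BNIP3 and EGLN3, targets of hypoxia-inducible factor. GAPDH had 5133, 4864 and 4510.1 CPM in Pop, against 1912 to 2360.1 CPM in lineage 03, 2489 to 2670 in lineage 10 and 2839 to 3214 in lineage 13 (0.69 ± 0.10, adjusted p = 0.00039). ENO2, an enolase, had 132, 140 and 129 CPM in Pop and 61.1 to 88.6 CPM in the lineages (0.67 ± 0.08, adjusted p = 0.000107). SLC16A3 had 440, 449 and 453 CPM in Pop and 229 to 346 CPM in the lineages (0.51 ± 0.08, adjusted p = 0.00146). Several calls lay near the threshold: without Pop replicate 1 the list had 5 genes above, without Pop replicate 2 it had 6, and 5 also without any lineage 10 library or without lineage 13 replicate 1 or 2, while the median stayed between 0.40 and 0.47 over all alternatives run.

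TPI1 had 1158, 831 and 766 CPM in Pop and 449 to 585 CPM in the lineages, with Pop replicate 1 the highest of all (0.87 ± 0.14, adjusted p = 0.00102). The classical hypoxia target CA9 had a Pop mean inside the range, and so had ADM, PDK1, HK2 and NDRG1. The main glucose carrier SLC2A1 was at 554 ± 82.3 CPM in Pop (SD, n = 3) and 545 CPM in lineage 13 and was not called.

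Position on chromosome 12 was shared by many genes of these lists. Of the 9 epithelial genes above, 5 lie there (KRT7, KRT8, KRT18, KRT80 and KRT81). These are all 5 of the 19 tested epithelial genes on that chromosome. Of the 11 glycolysis and hypoxia genes above, 4 lie there (GAPDH, TPI1, ENO2 and LDHB). In that list 5 of the 32 tested genes are on chromosome 12. Chromosomes were assigned to 13977 of the tested genes. On chromosome 12, Pop was above all 3 lineages in 160 of 723 genes (22.1%), against 4.93% of the genes on other chromosomes, and the median log2 difference was 0.34, 0.29 and 0.30 from lineages 03, 10 and 13. In 9 consecutive blocks of about 50 tested genes from 0.2 to 89.4 Mb, 138 of 464 genes were above (29.7%), with block medians of 0.36 to 0.55 from the mean. From 89.4 to 123.2 Mb 8 of 207 were (3.86%), with block medians of -0.01 to 0.09. The remaining block, to 133.2 Mb, had 14 of 52 above.

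Chromosome 1 showed a like division. From its start to 59.9 Mb, 92 of 559 genes were above (16.5%), with block medians of 0.18 to 0.44, against 35 of 865 (4.05%) in the rest. Genes below were concentrated elsewhere: on chromosome 18, 45 of 198 genes were below (22.7%, median -0.34), on chromosome 21, 23 of 131 (17.6%, median -0.27), and on chromosome 2 from 86.5 to 208.3 Mb, 65 of 410 (15.9%), against 13 of 358 in the part before it. On chromosome 18 every one of the 4 blocks had a median below 0, from -0.44 to -0.24. The X chromosome had a median of 0.29 against the mean, but -0.12 against lineage 03, 0.64 against lineage 10 and 0.26 against lineage 13, so Pop was not on the same side of all 3.

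The genes at least 2-fold above were spread more evenly than all genes above. Of the 813 genes above with a chromosome, 160 (19.7%) lay on chromosome 12, and of the 401 at least 2-fold above, 34 (8.48%) did. Over all genes tested, 723 of the 13977 with a chromosome lay there, a smaller share than in either set. Of the 386 genes below with a chromosome, 79 (20.5%) lay on chromosome 2, 45 (11.7%) on chromosome 18 and 23 (5.96%) on chromosome 21. These 3 chromosomes held 922, 198 and 131 of the 13977 genes. Without Pop replicate 1 the share above on chromosome 12 was 22.6% and the share below on chromosome 18 was 23%. Without Pop replicate 2 it was 14.5%, with 29 of 200 genes. DNA copy number was not measured, and its part in these shifts was not tested. The blocks joined here were chosen after their values were seen.

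**Figure D5:**
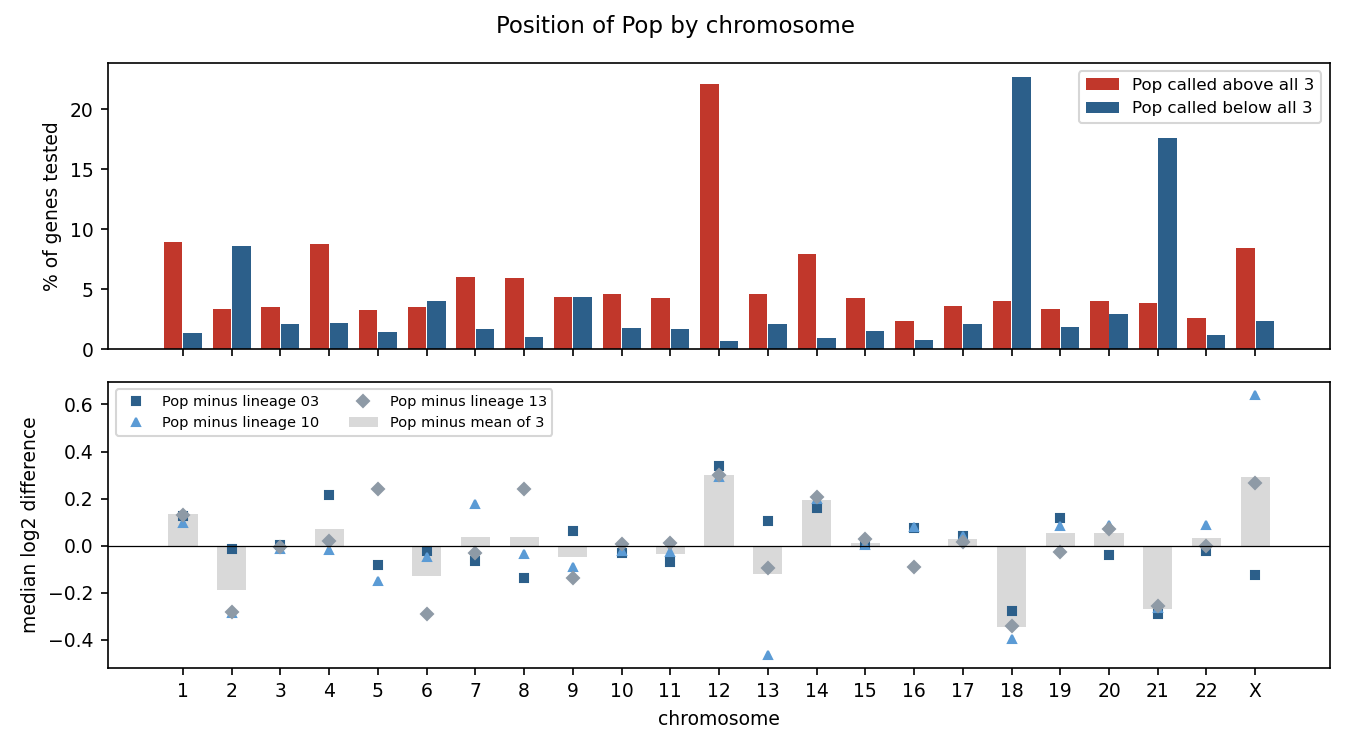
Upper panel, share of the tested genes of each chromosome (percent) that Pop was called above (red) or below (blue) all 3 lineages; lower panel, median log2 difference of Pop from the mean (grey bars) and from each lineage (symbols). Chromosome 12 has the highest red bar (22.1%) with all 3 symbols near 0.3, and chromosomes 18 and 21 have the highest blue bars with all symbols below -0.2.

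Of 17 genes known to promote or suppress metastasis, 4 were above and 0 below, where 5.76% and 2.75% of all genes tested were, and 10 were higher and 2 lower than the mean (median 0.65). CXCR4, the receptor of the chemokine CXCL12, had 8.40, 5.56 and 5.35 CPM in Pop, against 0.830 to 1.04 in lineage 03 and at most 0.0302 in the others (2.76 ± 0.24, adjusted p = 6.42e-06). ARHGDIB, an inhibitor of GDP release from small GTPases, had 166, 145 and 146 CPM in Pop, against 53.1 to 57.4 in lineage 10, 26.6 to 34.5 in lineage 13 and 0.237 to 0.259 in lineage 03 (1.47 ± 0.09, adjusted p = 2.78e-07). ANGPTL4, a secreted inhibitor of lipoprotein lipase, had 28.9, 25.5 and 21.8 CPM in Pop and at most 8.27 CPM in the lineages (2.15 ± 0.27, adjusted p = 0.000167). The fourth was TNC, which also stands in the mesenchymal list. The TNC call was lost without Pop replicate 2 (adjusted p = 0.107), Pop replicate 3 (0.0571) or lineage 03 replicate 1 (0.0993).

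Of 17 matrix proteases and inhibitors, 3 were above and 2 below, where 5.76% and 2.75% of all genes tested were. MMP1, the interstitial collagenase, had 45.0, 33.8 and 29.6 CPM in Pop, against 0.370 to 0.919 in lineage 03, 0.845 to 1.77 in lineage 10 and at most 0.231 in lineage 13 (4.91 ± 0.34, adjusted p = 6.19e-07). MMP16, a membrane-type protease, was above by 1.22 ± 0.21, and ADAMTS1 was above as given. ADAMTS6 and ADAMTS12 were below, at -0.42 ± 0.10 and -1.07 ± 0.17 from the nearest lineage, so members of the same protease family lay on opposite sides. The general inhibitors TIMP1, TIMP2 and TIMP3 were not called.

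Of 11 stem cell markers used in breast tissue, 3 were above: CD24, which marks luminal rather than stem-like cells, SOX4, a transcription factor with 4.76, 5.85 and 6.57 CPM in Pop against at most 0.259 CPM in any lineage library (5.12 ± 0.43), and LGR5, an R-spondin receptor with 0.912 to 1.10 CPM in Pop against at most 0.150 (3.43 ± 0.49). Of 16 YAP and TAZ targets, 3 were above: AJUBA (0.47 ± 0.07), F3, the tissue factor gene (0.45 ± 0.09), and ANKRD1 (0.87 ± 0.19). ANKRD1 had 748, 498 and 467 CPM in Pop, and without replicate 1 its adjusted p was 0.0572. Of 30 immediate early genes, the phosphatase genes DUSP4 (1.07 ± 0.14) and DUSP6 (0.59 ± 0.10), which are induced by and restrain ERK signalling, were above. Of all genes tested 5.76% were above, to be set beside these counts, and the share of the immediate early genes was near it.

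Of 23 NF-kappaB targets and cytokines, 2 were above and 1 below, shares near the 5.76% and 2.75% of all genes tested. PTGS2, cyclooxygenase 2, had 2.63, 2.88 and 3.05 CPM in Pop and 5 counts over all lineage libraries (ratio to lineage 03 of 89.0, 95% interval 30.1 to 434). IL11, a cytokine of the IL6 family, had 65.9, 59.0 and 61.4 CPM in Pop, against 20.9 to 30.4 in lineage 10, 10.5 to 12.9 in lineage 13 and 2.08 to 3.75 in lineage 03 (1.30 ± 0.16, adjusted p = 0.00015). ICAM1, an adhesion receptor for leukocytes, was below at 20.2, 19.8 and 21.1 CPM in Pop against 24.7 to 32.4 CPM in lineages 10 and 13 and 109 to 140 in lineage 03 (-0.48 ± 0.12, adjusted p = 0.0276), and without Pop replicate 1 its adjusted p was 0.0611. IL6, CXCL8 and BIRC3 lay inside the range.

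Of 23 antigen presentation genes, 0 were above and 1 below, where 5.76% and 2.75% of all genes tested were, so the share below was near the background. Against the mean 0 were higher and 16 lower (median -0.39), where 24.8% and 19% of all genes tested were. The gene below the range was HLA-B, at 554 ± 80.8 CPM in Pop (SD, n = 3) and 713 CPM in the nearest lineage, 13 (-0.36 ± 0.10, adjusted p = 0.0437). Reads of HLA genes can be divided among similar genes and alleles, so this call is uncertain. The call was also lost when most libraries were left out singly, with an adjusted p of 0.182 without Pop replicate 2. Lineage 03 was far above the other groups here, with HLA-B at 2285 CPM and CD74, the invariant chain, at 822 CPM, against 156 CPM in Pop and 128 and 225 CPM in lineages 10 and 13. Of 35 interferon-stimulated genes, 21 were higher and 3 lower than the mean (median 0.45), and 0 were called above the range. That 0 depended on a single library: without lineage 03 replicate 3, 8 of the 35 were called above. Without Pop replicate 1, 13 interferon-stimulated genes were higher than the mean and the median was 0.30.

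Metabolic and stress lists had few genes outside the range, where 5.76% of all genes tested were above and 2.75% below. Among 21 amino acid transporters, SLC6A6, the taurine carrier, and SLC1A4, a carrier of neutral amino acids, were below (-0.67 ± 0.13 and -0.52 ± 0.13), and SLC1A1, a glutamate carrier, was above. Of 20 NRF2 targets, 1 was higher and 9 lower than the mean (median -0.30), and TXNRD1, thioredoxin reductase, was below the range at 737 ± 87.4 CPM in Pop (SD, n = 3) and 1089.7 CPM in lineage 13 (-0.56 ± 0.13, adjusted p = 0.0154). TXNRD1 lies on chromosome 12 at 104215779, between 89.4 and 123.2 Mb. Without Pop replicate 1 the adjusted p of TXNRD1 was 0.0614 and that of SLC1A4 was 0.0503.

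Of 25 cholesterol genes, 0 were above and 1 was below, a share near the 2.75% of all genes tested. This was LSS, lanosterol synthase (-0.34 ± 0.08, adjusted p = 0.021, and 0.0597 without Pop replicate 1). Of 15 fatty acid genes, 1 was above, a share near the 5.76% of all genes tested. It was ELOVL1, an elongase, a call lost when most libraries were left out singly (adjusted p = 0.201 without Pop replicate 2). Of 30 ATF4 targets, DDIT3, a stress transcription factor, was above (adjusted p = 0.0273, and 0.0988 without Pop replicate 1), and SLC1A4 and PSPH, a phosphatase of serine synthesis that was also the called member of 15 serine, glycine and folate genes, were below. Of 10 S100 genes, S100A2 and S100P were above, and of 6 metallothionein and zinc exporter genes SLC30A1, the zinc exporter. The SLC30A1 call was lost when any single lineage 03 library was left out (adjusted p = 0.056 to 0.0637). Of 39 respiratory chain genes ATP5B and NDUFA9 were above, a share near the 5.76% of all genes tested. S100A2 had 49.7, 39.5 and 38 CPM in Pop, and its adjusted p of 0.0251 was 0.107 without Pop replicate 1. Among 40 ribosomal protein genes, 14 were higher than the mean, but without Pop replicate 1 the split against the mean was 5 higher and 4 lower, and with all libraries the median was 0.21 against 0.02 without that library. Of 24 S phase and 24 mitosis genes, 1 each was above, CLSPN and CDC20, both on chromosome 1. These shares were near the 5.76% of all genes tested. The CLSPN call was lost without lineage 13 replicate 1 (adjusted p = 0.0664) or replicate 2 (0.0644). No member of 18 endoplasmic reticulum stress genes, 13 heat shock chaperones or 15 p53 targets was outside the range. Of the nuclear-retained RNAs, NEAT1 was below at 354, 346 and 422 CPM in Pop against 559 to 1217 CPM in the lineages (-0.87 ± 0.15, adjusted p = 0.00149), and MALAT1 was not called.

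Markers of other cell types were counted in the same way. Of the fibroblast markers, COL3A1, DCN and PDGFRA had 0 to 6 counts in each library, and LUM was above at 0.353 to 0.866 CPM in Pop against at most 0.117 CPM. Of the leukocyte markers, CD3E had 0 or 1 count, PTPRC had 4 to 8 in Pop and 0 to 6 in the lineages, LYZ had 10, 8 and 23 in Pop and 1 to 7 in the lineages, and LAPTM5 was higher than the mean without being called above the range. Of the endothelial and erythroid markers, CDH5 had 0 to 4 counts, HBB none and HBA1 3, 0 and 7 in Pop and 0 to 2 in the lineages, while PECAM1, an adhesion receptor, was above at 3.76, 3.79 and 4.36 CPM in Pop against at most 1.16 CPM (2.46 ± 0.30, adjusted p = 0.000122), and ESAM at 76.9, 77.2 and 90.0 CPM in Pop against 5.76 to 32.7 CPM (1.39 ± 0.12, adjusted p = 6.03e-06). The summed CPM of the tested members of this last list ran from 80.7 to 94.4 in Pop and from 5.91 to 32.8 in the lineages. For the tested leukocyte markers it ran from 89.8 to 119 in Pop and from 8.91 to 94.6 in the lineages, and for the fibroblast markers from 17.5 to 19.6 in Pop and from 7.84 to 24.7. The part of other cells in the results was not tested.

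Lineages 22, 35 and 45, grown alone in the same medium, were quantified in a separately made table, so their CPM are set beside Pop without a test. ATP10A was at 47.7 ± 0.930, 0.723 ± 0.154 and 40.5 ± 3.60 CPM in lineages 22, 35 and 45 (SD, n = 3 each), beside 27.6 ± 4.88 CPM in Pop. CDH11 was at 94.7 CPM in Pop and at 81.6, 3.48 and 58.9 CPM in those lineages in the same order, and AGR2 at 15.8 CPM in Pop and at 57.9, 0.539 and 25.4 CPM. All 12 leading genes above were higher in lineages 22 and 45 than in 35. Of the 820 genes above, lineage 22 was the highest of these 3 in 444, lineage 45 in 278 and lineage 35 in 98, and of the 406 at least 2-fold above in 269, 128 and 9. Over all tested genes the numbers were 5272, 3465 and 5505.

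Of the 391 genes below, lineage 35 was the highest of the 3 in 311, lineage 22 in 52 and lineage 45 in 28. The highest of the 3 was at or above Pop in 84.4% of the genes above, against 81.1% of all genes tested, a share near the background. CXCR4 was a gene whose Pop level was not met there, at 6.43 ± 1.70 CPM in Pop and at 0.85, 1.56 and 0.0351 CPM in lineages 22, 35 and 45. MMP1 was at 36.1 ± 7.95 CPM in Pop and at 4.19, 0.375 and 24.8 CPM. CST7, below lineages 03, 10 and 13, was at 2.28 ± 0.18 CPM in Pop and at 1.06, 3.45 and 0.657 CPM in lineages 22, 35 and 45.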

How the data were processed

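Poly(A) RNA of 12 libraries was sequenced in paired reads. The deposited table holds estimated counts per gene, scaled by length. Per the submitters' processing notes, STAR 2.6.1d, Salmon 1.4.0 and the build GRCh38 were used; their roles and the annotation are not given in the sources used here. Counts were rounded, genes with date-like or antisense names left out, low genes removed with filterByExpr, and edgeR 4.0.16 (R 4.3.3, TMM, robust quasi-likelihood fit, Benjamini-Hochberg adjustment over all genes tested) fitted to the 4 groups. The mean comparison weighted the 3 lineages equally on the log2 scale. The outside call took the largest p of the 3 pairwise tests with equal sign. Standard errors came from the fold change and the F statistic. Intervals and the floor of 3 counts cover counting error only, as reads had no molecular identifiers. Named genes were the 12 in each direction farthest from the nearest lineage among called genes without overlap and with a mean of at least 5 CPM in Pop (above) or in the lowest lineage (below), up to 4 members of each list by p, and 4 in each direction inside the range. Other genes were named after their values were seen. On simulated counts of this comparison (13912 genes), 98% of 2-fold and 74% of 1.5-fold changes were recovered. Changes were planted only in genes that were not near 0 in any lineage. Each gene had the same dispersion in all groups, so the wider spread of Pop was not simulated. The members and the gene lists were chosen with earlier results of these data known. Alternatives were RLE scaling, DESeq2 1.42.0, other filters, thinning, a replicate block and leaving out each library. Some list members are not reported here.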

Additional observations from a re-analysis of the deposited data

How the results depend on the processing

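No named gene reversed under any alternative run. With at least 5 CPM in 3 libraries, Pop was 2-fold higher than the mean in 328 genes and 2-fold lower in 55, above the range in 514, and 2-fold above in 121 and below in 7. With only genes that passed the filter in every group, the counts were 299 higher than the mean by 2-fold, 489 above the range and 93 above by 2-fold. With the arithmetic mean, 176 were 2-fold lower. Leaving out each library in turn gave 3146 to 3682 genes higher and 2164 to 2778 lower than the mean, 1037 to 1117 and 109 to 175 by 2-fold, 672 to 833 above and 250 to 387 below the range, and 382 to 431 and 10 to 17 by 2-fold. For lineage 03 the ranges were 1122 to 1593 above and 888 to 1425 below, for lineage 10 165 to 472 and 304 to 579, and for lineage 13 389 to 698 and 488 to 882. The causes were not tested. The replicate numbers did not pair the samples: 5 of 12 libraries correlated best with their own number, and a replicate block gave 737 genes above and 320 below, and 5 of the hypoxia and glycolysis genes above. Calls of HLA-B and ELOVL1 were lost under other filters or the block, and 19 genes chosen by the naming rule lost their call when some library was left out. For HLA-B and ELOVL1 this held for most of the libraries left out singly. TNC, SLC30A1, CDH1, ERBB2 and CLSPN were also among the 19. Depth limits the genes at or near 0, whose folds are bounds.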
